A study of Canis lupus familiaris with 4 samples.

Results

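The p53-linked miRNAs miR-34, miR-449, miR-192, miR-194 and miR-215 were examined in extracellular vesicles (EVs) of a pair of canine mammary carcinoma cell lines. Rows of the deposited miRNA table were chosen by name alone, and 8 of the 673 rows matched: cfa-mir-34a, cfa-mir-34b, cfa-mir-34c, cfa-mir-449a, cfa-mir-449b, cfa-mir-192, cfa-mir-194 and cfa-mir-215. CHMp was established from a primary mammary gland adenocarcinoma and CHMm from a metastasis of the same dog, so the comparison rests on a single patient. Both lines were grown with fetal bovine serum, then washed and kept in serum-free medium before EVs were collected. Their EVs are called pTDEs (CHMp) and mTDEs (CHMm). Small RNA was sequenced from 2 libraries per cell line, which the study describes as biological replicates. The labels do not say whether they came from separate cultures, so p-values measure only the spread between these libraries, which may be in part technical.

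The tumor suppressor p53 is a transcription factor that answers DNA damage and other stress with arrest or death of the cell. miR-34a is among its best known direct miRNA targets and acts against cell cycle and survival genes. miR-34b and miR-34c are made from a second p53-responsive transcript, and the miR-449 miRNAs share their seed with miR-34 but are best known from multiciliated cells. miR-192 and miR-215 share a seed, are encoded beside copies of miR-194, and are abundant in intestine, kidney and liver. In the RefSeq annotation of the dog, MIR34B and MIR34C neighbor each other within HOATZ and beside BTG4, and MIR449A and MIR449B neighbor each other within CDC20B. MIR194 and MIR215 neighbor each other within IARS2, and MIR192 lies apart within the lncRNA LOC102155550. The activity of p53 was not measured in these libraries.

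Levels are given as counts per 1000000 reads (CPM) recovered from the deposited scores. Depth is given as the recovered reads summed over all rows, in which copies of a miRNA are counted separately. It was 6296322 reads in pTDE replicate 1, 5053279 in pTDE replicate 2, 3457179 in mTDE replicate 1 and 2330438 in mTDE replicate 2. For rows listed at 0, the limit of detection was set at 3 reads, which ranged from 0.476 CPM in the deepest library (pTDE replicate 1) to 1.29 CPM in the shallowest (mTDE replicate 2). Intervals in CPM are exact 95% Poisson intervals. Like this limit they hold the counting error alone and are too narrow where PCR copies, or the forward and reverse read of a fragment, were counted separately. CPM is a share of the reads summed over all rows. More copies of a miRNA in EVs, fewer of all others, or another number of EVs thus cannot be told apart.

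Of the 8 miRNAs, only miR-34a, miR-192 and miR-194 were above 0 in every library. miR-215 was seen in replicate 2 of each cell line, miR-34c and miR-449a in 1 library each, and miR-34b and miR-449b were listed at 0 in all 4 libraries. The 8 rows together summed to 141.2 and 141.3 CPM in pTDE replicates 1 and 2, 152 CPM in mTDE replicate 1 and 400.1 CPM in mTDE replicate 2, a small part of any library.

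**Figure D1:**
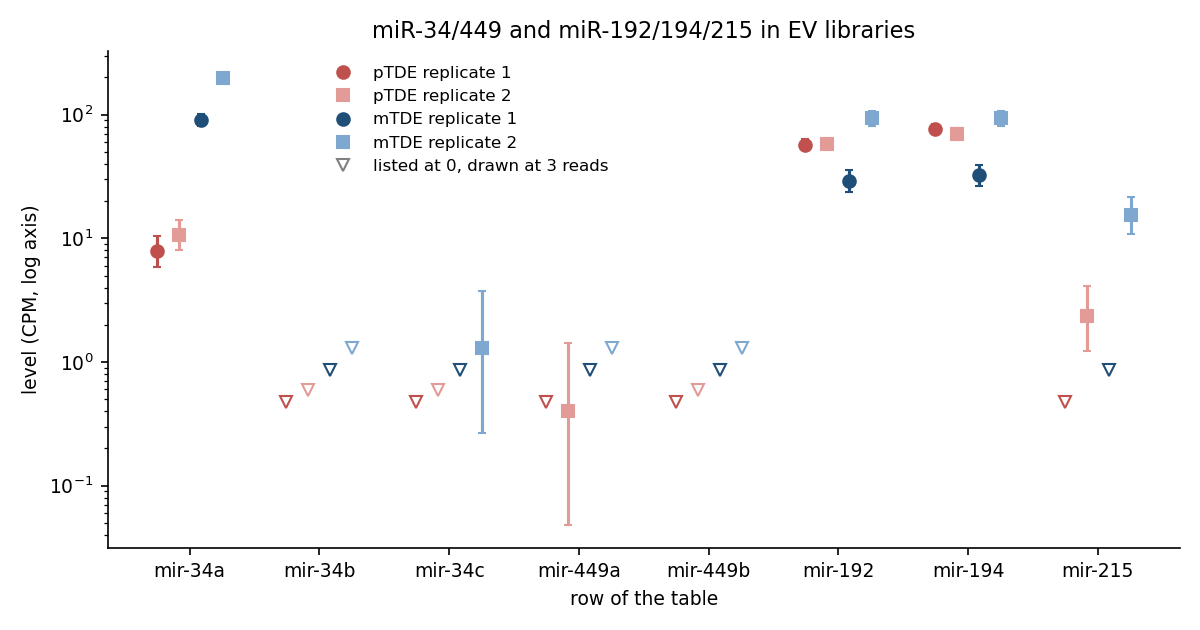
Level of each of the 8 miRNAs in CPM (log axis) by library, with circles for replicate 1, squares for replicate 2, red for pTDEs and blue for mTDEs; bars are exact 95% Poisson intervals and open triangles mark the 3-read limit where a row was listed at 0. miR-34a separated the cell lines, from 7.94 and 10.7 CPM in pTDEs to 90.6 and 197 CPM in mTDEs, whereas the mTDE libraries lay on both sides of the pTDE libraries for miR-192 and miR-194.

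Of miR-34a, miR-192 and miR-194, the rows above 0 in every library, only miR-34a, the direct p53 target, did not overlap between the cell lines. Lack of overlap was common, since 27.3% of all rows tested were lower in pTDEs without overlap and 26.1% higher. miR-34a was at 7.94 CPM (50 reads, interval 5.89 to 10.5 CPM) in pTDE replicate 1 and 10.7 CPM (54 reads, 8.03 to 13.9 CPM) in pTDE replicate 2. In mTDEs it was at 90.6 CPM (313 reads, 80.8 to 101 CPM) in replicate 1 and 197 CPM (458 reads, 178.9 to 215.4 CPM) in replicate 2. Both mTDE libraries held more miR-34a reads than either pTDE library although they were shallower. Its pTDE mean was 9.31 ± 1.94 CPM (SD, n = 2) and its mTDE mean 143.6 ± 75.0 CPM, 15.4-fold higher in mTDEs. Comparing libraries of the same number, mTDEs were 11.4-fold higher in replicate 1 and 18.4-fold higher in replicate 2. Among the rows above 0 in a library, miR-34a ranked 229 of 342 and 220 of 347 in pTDEs and 131 of 306 and 129 of 332 in mTDEs.

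This difference did not pass the test across all miRNAs. limma was fitted to log2(CPM + 1) over the 326 rows that both replicates of 1 or both cell lines listed above 0, and its log2 fold changes (pTDEs over mTDEs) are too small for low miRNAs because of the added 1. For miR-34a it was -3.72, with a standard error of 0.87 and a 95% interval from -6.05 to -1.38. The limma p was 0.0106 unadjusted and 0.101 after Benjamini-Hochberg adjustment over all 326 rows. With the deposited values taken as CPM, without conversion, the log2 fold change was -0.96 and the limma adjusted p was 0.0284, so that both the size and the call depend on the scale. By its log2 fold change of -3.72, on recovered CPM, miR-34a ranked 14 from the lowest of the 326. Its direction was the same with each library left out in turn, with log2 fold changes from -4.27 to -3.16 and limma adjusted p-values from 0.144 to 0.461. Rows that were lower in pTDEs with no overlap between the cell lines made up 27.3% of the 326 and rows that were higher 26.1%, whatever the size of their difference. Of all rows, 1.84% passed an adjusted p of 0.05 as lower in pTDEs and 0% as higher (6 and 0 rows, against 9 and 5 with median-ratio size factors), and miR-34a, miR-192 and miR-194 were not among them. By unadjusted p, 9.51% of all rows were lower in pTDEs, miR-34a among them, and 10.1% were higher.

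The 4 relatives of miR-34a were at or near the limit of detection. miR-34c was listed at 0 in 3 libraries and had 3 reads in mTDE replicate 2, 1.29 CPM with an interval of 0.265 to 3.76 CPM. miR-34b, encoded beside miR-34c, was listed at 0 in all 4 libraries, which allows up to 0.476 CPM in the deepest and 1.29 CPM in the shallowest. miR-449a had 2 reads in pTDE replicate 2, 0.399 CPM with an interval of 0.0479 to 1.43 CPM, and was listed at 0 in the other libraries. miR-449b was listed at 0 in all 4 libraries. At 0.399 CPM no more than 2.51 reads would be counted in any of the libraries that list miR-449a at 0, so that a difference in this miRNA was not detectable at this depth. For miR-34c the level of 1.29 CPM would give from 4.47 to 8.14 reads in the libraries that list it at 0, but the lower bound of its interval lies under the 3-read limit of every library. These rows did not enter the test because neither cell line listed them above 0 in both replicates.

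miR-192 and miR-194 were present in both cell lines, and their spread between the mTDE replicates exceeded the difference between the cell lines. In pTDEs, miR-192 was at 57.1 CPM (359 reads) in replicate 1 and 58.0 CPM (293 reads) in replicate 2. In mTDEs it was at 29.2 CPM (101 reads) in replicate 1 and 93.6 CPM (218 reads) in replicate 2. The pTDE libraries were nearly equal, and the mTDE libraries lay below and above them. Its pTDE mean was 57.5 ± 0.679 CPM (SD, n = 2) and its mTDE mean 61.4 ± 45.5 CPM. limma gave a log2 fold change of 0.13 ± 0.90 (standard error) and an adjusted p of 0.958, with a 95% interval from 0.205-fold to 5.86-fold, pTDEs over mTDEs. The mean in CPM was slightly higher in mTDEs and the mean on the log scale slightly higher in pTDEs.

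miR-194 had the same order of libraries within mTDEs. In pTDEs it was at 76.2 CPM (480 reads) in replicate 1 and 69.8 CPM (353 reads) in replicate 2. In mTDEs it was at 32.4 CPM (112 reads) in replicate 1 and 93.1 CPM (217 reads) in replicate 2, again on both sides of pTDEs. Its pTDE mean was 73.0 ± 4.52 CPM (SD, n = 2) and its mTDE mean 62.8 ± 42.9 CPM. limma gave a log2 fold change of 0.40 ± 0.85 (standard error) and an adjusted p of 0.81, with a 95% interval from 0.27-fold to 6.44-fold, pTDEs over mTDEs. These intervals are wide, and equal levels in the cell lines were not shown for either miRNA. Between libraries of replicate 1, mTDEs were at 0.512 of the pTDE level for miR-192 and 0.425 for miR-194, and between libraries of replicate 2 at 1.61 and 1.33. Leaving out mTDE replicate 1 turned the log2 fold changes to -0.69 for miR-192 and -0.35 for miR-194, and leaving out mTDE replicate 2 gave 0.95 and 1.15, with limma adjusted p-values from 0.316 to 0.66 over these 4 values.

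**Figure D2:**
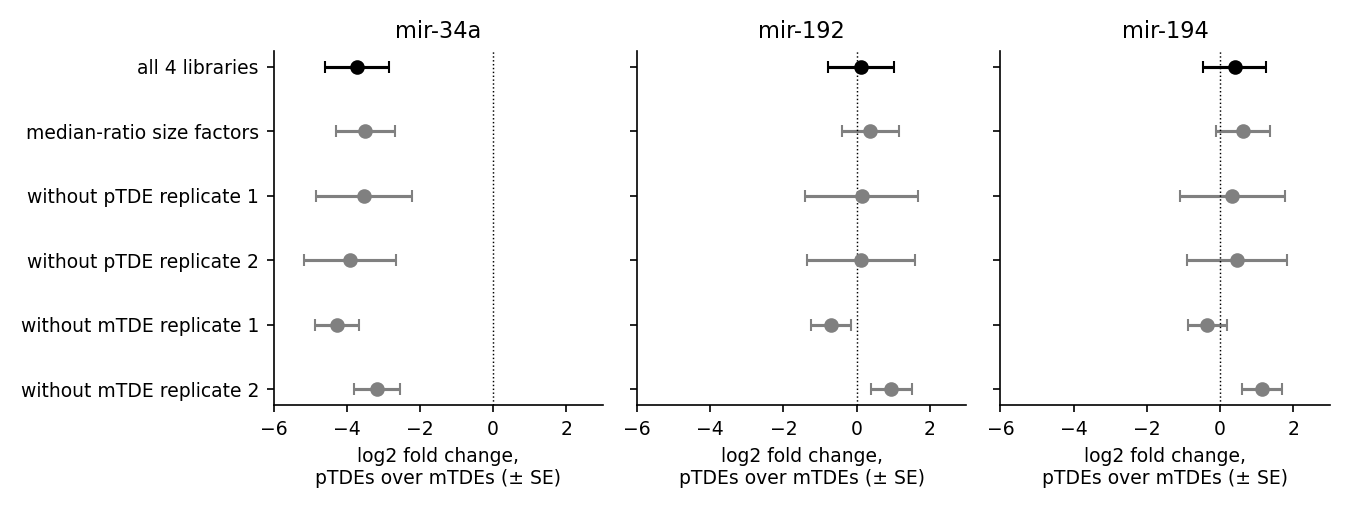
Log2 fold change (pTDEs over mTDEs, points) with its standard error (bars) from limma for miR-34a, miR-192 and miR-194 with all 4 libraries, with median-ratio size factors and with each library left out. miR-34a stayed between -4.27 and -3.16, whereas miR-192 and miR-194 changed sign without mTDE replicate 1.

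The mTDE replicates differed in scale as well as in single miRNAs. Between mTDE replicates 2 and 1, miR-34a was 2.17-fold higher, miR-194 2.87-fold and miR-192 3.204-fold. The median of this ratio over the 240 rows with at least 10 reads in both libraries was 1.54, against 1.04 over 267 rows in pTDEs. With median-ratio size factors over the 231 rows above 0 in all libraries, the ratio fell to 1.39 for miR-34a, 1.84 for miR-194 and 2.05 for miR-192. On that scale miR-34a was at 8.60 and 11.1 CPM in pTDEs and 102 and 140.8 CPM in mTDEs, with a log2 fold change of -3.49 (limma adjusted p = 0.0968). Over all rows tested the median then shifted from -0.03 to 0.22, a shift that miR-192 (0.37) and miR-194 (0.64) shared.

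The ratio between 2 miRNAs within a library does not depend on the library total, but it does depend on the conversion of the deposited values to CPM. The ratio of miR-192 to miR-194 was 0.748 and 0.831 in the pTDE replicates, in order, and 0.901 and 1.005 in mTDEs. The ratios did not overlap but lay close, with a mean log2 ratio of -0.34 ± 0.11 in pTDEs and -0.07 ± 0.11 in mTDEs (SD, n = 2), and the 2-sided exact permutation p was 0.333, the smallest that 2 against 2 libraries can give. The ratio of miR-34a to miR-192, added after the levels were seen, was 0.139 and 0.184 in pTDEs and 3.101 and 2.101 in mTDEs. Its mean log2 value was -2.64 ± 0.29 in pTDEs and 1.35 ± 0.40 in mTDEs (SD, n = 2), with the same exact permutation p of 0.333. The ratio of miR-34a to miR-194 was 0.104 and 0.153 in pTDEs and 2.79 and 2.11 in mTDEs. On average the first of these ratios was 15.95-fold and the second 19.3-fold higher in mTDEs, against 2.18-fold and 2.27-fold with the deposited values taken as CPM. miR-34a was the lowest of the 3 in both pTDE libraries and the highest in both mTDE libraries. Between miR-194 and miR-192 the counting intervals were apart only in pTDE replicate 1 (69.6 to 83.4 CPM against 51.3 to 63.2 CPM), and their order turned in mTDE replicate 2. The order of different miRNAs also carries their unequal ligation and the kept read length of 22 to 30 bases, which could not be assessed from the table.

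**Figure D3:**
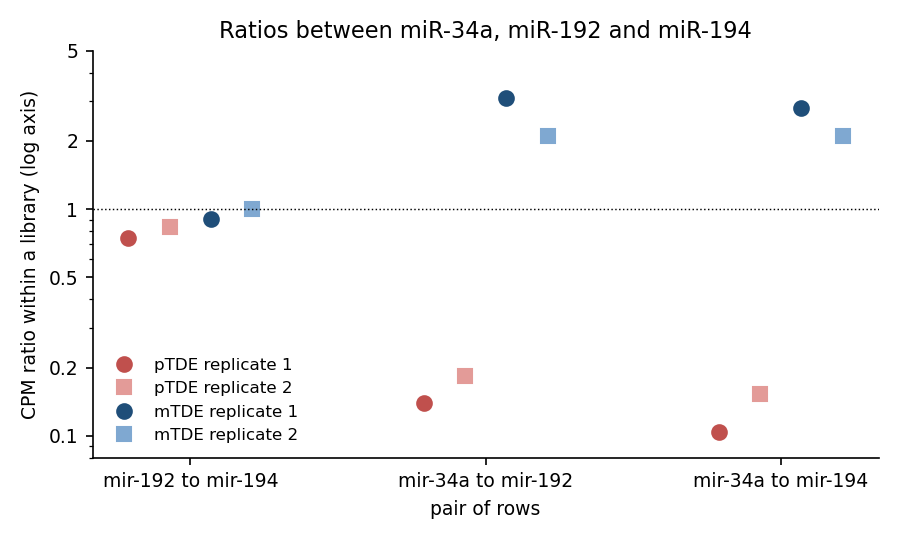
CPM ratio within each library (log axis) for 3 pairs of miRNAs, with circles for replicate 1, squares for replicate 2, red for pTDEs and blue for mTDEs. The ratio of miR-192 to miR-194 stayed between 0.748 and 1.005, whereas that of miR-34a to miR-192 went from 0.139 and 0.184 in pTDEs to 3.101 and 2.101 in mTDEs.

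miR-215, which shares its seed with miR-192 and neighbors miR-194, was detected in the libraries of replicate 2 alone. It was listed at 0 in replicate 1 of both cell lines. It had 12 reads in pTDE replicate 2 (2.37 CPM, interval 1.23 to 4.15 CPM) and 36 reads in mTDE replicate 2 (15.4 CPM, 10.8 to 21.4 CPM). Between these libraries it was 6.51-fold higher in mTDEs, with counting intervals apart, and this ratio of 2 libraries has no replicate. At the lower of these levels, 14.9 reads would be counted in pTDE replicate 1 and 8.20 in mTDE replicate 1, above the 3-read limit of each. Its neighbor miR-194 had at least 112 reads in every library. This pattern was then counted in the table, a count added after the levels were seen. Over all 673 rows, 11 were at 0 in both replicates 1 and above 3 reads in both replicates 2, and 1, miR-193b, had the reverse pattern. The 11 include 4 copies of miR-1837 with identical values. By the same limits, 7 rows followed mTDEs (at 0 in pTDE replicates 1 and 2, above 3 reads in mTDE replicates 1 and 2) and 34 followed pTDEs. Copies of a miRNA are counted separately here too, and since both pTDE libraries were deeper than both mTDE libraries, the part of depth in the 34 was not tested. miR-215 did not enter the test, since it was above 0 in 1 library of each cell line. HiSeq and NovaSeq instruments were both used, and since the sources used here do not assign them to libraries, their part in this pattern was not tested.

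Marker miRNAs of blood and liver, where miR-192, miR-194 and miR-215 are also found, moved with some of these values. Of the 6 blood rows (miR-451, miR-144, miR-486-3p, miR-223, miR-142 and miR-150), 5 were above 0 and the erythroid miR-144 was at 0 in all 4 libraries. Their sum was 261 and 893 CPM in pTDE replicates 1 and 2 and 706 and 3018 CPM in mTDE replicates 1 and 2. It was higher in replicate 2 of each cell line, as miR-215 was. Of all rows with at least 10 reads in both libraries of a line, 72.1% in mTDEs and 51.7% in pTDEs were also higher in replicate 2. The median log2 fold change of the 5 blood rows tested was -1.42. None was called, beside 1.84% of all rows called lower and 0% higher. The liver miRNA miR-122 was at 158 and 98.5 CPM in pTDEs and 364 and 569.7 CPM in mTDEs (log2 fold change -1.86, standard error 0.57, limma adjusted p = 0.17). Their part in the levels of miR-215, miR-192, miR-194 and miR-34a was not tested.

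miRNAs that mark epithelial cells separated the lines in the direction of miR-34a. The 7 rows of miR-200a, miR-200b, miR-200c, miR-141, miR-429, miR-205 and miR-203 summed to 73.9 and 104 CPM in pTDEs and to 23718 and 26413 CPM in mTDEs. Of the 7, 6 were called lower in pTDEs, and these are all the rows called in the table (1.84% of 326). Of the 6, 4 (miR-200a, miR-200b, miR-141 and miR-429) were listed at 0 in pTDE replicates 1 and 2. These 4 entered the test through mTDEs alone, where they are high, so their calls are not independent of the row filter. Epithelial markers of the labelled mammary origin were thus abundant in mTDEs and low or at 0 in pTDEs. With 1 library left out, 3 of the 7 rows were called without pTDE replicate 1, 2 without pTDE replicate 2 and 0 without either mTDE library. All 7 were called with size factors, voom, a mean of at least 10 CPM, a pseudocount of 0.1 CPM or the unconverted values. Only 5 were called with a pseudocount of 5 CPM or with every row above 0 in any library. Of the 6 mesenchymal rows, which list miR-199 as 3 copies with identical values, none was called, and 0% of all rows were called higher in pTDEs. Over the 4 distinct miRNAs the sums overlapped, at 589 and 926 CPM in pTDEs and 81.6 and 762 CPM in mTDEs. The log2 fold changes of miR-199 (2.20) and miR-143 (1.14) were positive and those of miR-214 (-0.64) and miR-145 (-0.99) negative, with a median of 0.25. The part of these differences in that of miR-34a was not tested.

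Of 9 other rows whose transcription or processing p53 is known to raise, 2 were called lower in pTDEs and none higher, beside 1.84% and 0% of all 326 rows, with a median log2 fold change of -0.67 against -0.03 over all rows tested. Both called rows are epithelial miRNAs of 1 cluster and also stand in the epithelial list, as miR-143 and miR-145 stand in the mesenchymal list. miR-200c was at 15.1 and 6.33 CPM in pTDEs and 14606 and 16067 CPM in mTDEs (log2 fold change -10.46, standard error 0.57, limma adjusted p = 0.00842). miR-141 was at 76.1 and 77.7 CPM in mTDEs and at 0 in either pTDE library (limma adjusted p = 0.0401). It entered the test through mTDEs alone, so its call is not independent of the row filter. Without mTDE replicate 1 or 2 neither call held (limma adjusted p = 0.109 and 0.0946 for both), although the log2 fold changes stayed at -10.53 and -10.39 for miR-200c and -6.30 and -6.27 for miR-141, and no row of the table was called. The call of miR-141 was also lost without either pTDE library (0.225 and 0.194) and with the replicate block (0.0559), each at a log2 fold change of -6.28, and with a pseudocount of 5 CPM (0.0607) or with every row above 0 in any library (0.116). The other 7 rows were miR-107, miR-143, miR-145, miR-15a, miR-22 and both copies of miR-16, with log2 fold changes from -1.18 for miR-22 to 1.14 for miR-143 and no call.

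Among miRNAs known to target the p53 message, 7 rows were found and 5 could be tested, with a median log2 fold change of -0.29. None was called, which says little of the list since 1.84% of all rows were called lower and 0% higher. The largest log2 fold change was that of miR-33a, at 1.91 and 1.58 CPM in pTDEs and listed at 0 in both mTDE libraries (limma adjusted p = 0.112). It entered the test through pTDEs alone. miR-30d followed, at 22736 and 31009 CPM in pTDEs and 58179 and 30449 CPM in mTDEs (log2 fold change -0.66, standard error 0.46, limma adjusted p = 0.446). miR-504 was listed at 0 in all 4 libraries. In the miR-17-92 cluster, which p53 represses, likewise none of the 8 rows was called (median log2 fold change -0.28 over the 6 rows that remain when copies with identical values are counted once), and the largest change was that of miR-17, at -1.29 ± 0.88 (log2, standard error) with a limma adjusted p of 0.443. Its levels were 8.73 and 4.75 CPM in pTDEs and 23.1 and 12.9 CPM in mTDEs. The 2 copies of miR-19b, listed with identical values, followed with a log2 fold change of -0.59 and overlapping libraries.

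**Figure D4:**
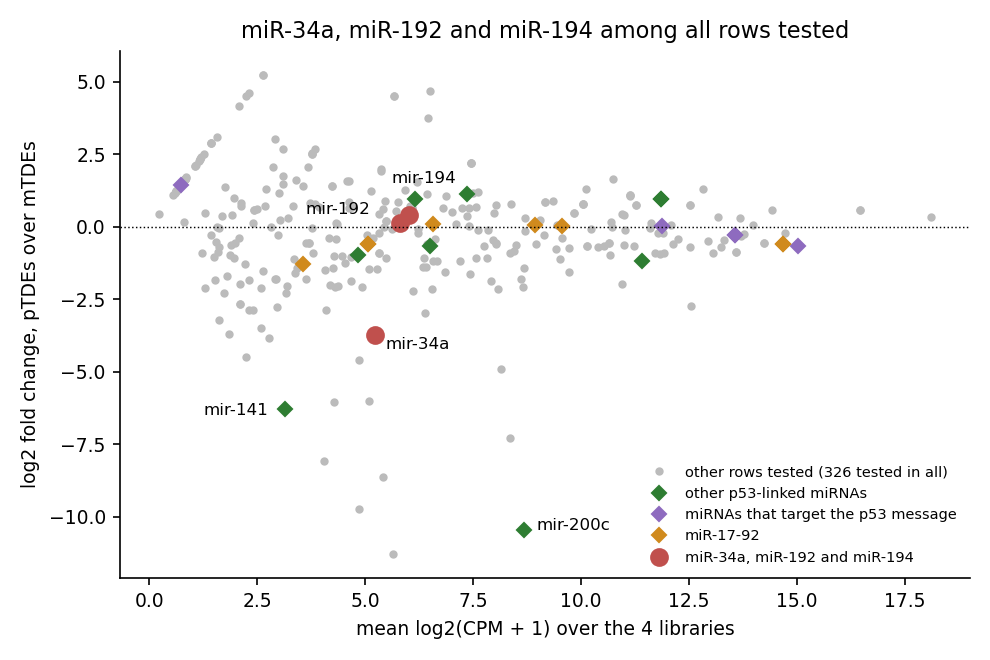
Log2 fold change (pTDEs over mTDEs) against the mean log2(CPM + 1) over the 4 libraries for the 326 rows tested (gray), with miR-34a, miR-192 and miR-194 in red, other p53-linked miRNAs in green, miRNAs that target the p53 message in purple and the miR-17-92 cluster in orange. miR-34a lies at -3.72, miR-192 at 0.13 and miR-194 at 0.40, and miR-200c lies at -10.46.

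The profiles most like each of the 3 miRNAs were sought by the Euclidean distance between log2(CPM + 1) values centered on each row's mean over the 4 libraries. This was done over 210 distinct rows above 3 reads in every library, and 4 points that share their library totals give a description only. miR-192 and miR-194 lay 0.31 apart, and each was the second nearest row of the other. The nearest to both was miR-15b, at 0.29 from miR-192 and 0.30 from miR-194, with 3634 and 3004 CPM in pTDEs and 1879 and 4813 CPM in mTDEs. The third was miR-381 for miR-192, at 0.39, and miR-132 for miR-194, at 0.37. miR-34a had no row as close, and its nearest were cfa_novel_5 at 1.22, the epithelial miR-203 at 1.24 and cfa_novel_42 at 1.49. miR-203 was at 38.5 and 66.9 CPM in the pTDE libraries and 950.2 and 2535 CPM in the mTDE libraries, with a limma adjusted p of 0.0536.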

How the data were processed

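The authors trimmed adapters and kept reads of 22 to 30 bases with cutadapt, put forward and reverse reads of a sample into 1 file, and quantified miRBase and predicted dog miRNAs with miRDeep2 on CanFam3.1; versions are not given in the sources used here. The deposited values of each library are treated as a score: the study's methods name CPM as the values analysed, but the deposited whole numbers have the form of log2(CPM + 1) times a constant. Its further columns (log2 fold change, average log2 CPM, likelihood ratio, p-value and FDR) were the authors' own comparison and were left out.

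CPM were recovered as 2^(value/s) - 1, with s set so that a library totals 1000000. The worth of 1 read was the largest step dividing all values under 20 CPM within rounding, so that these low values are whole reads by construction. limma 3.58.1 in R 4.3.3 was run with eBayes and a mean-variance trend (prior degrees of freedom 2.4) and Benjamini-Hochberg adjustment over 326 rows. Python 3.11.15 was used with scipy 1.17.1. Both steps were tested on 10 simulated data sets. The changes set there were large and in rows of middle level, with the same dispersion for all rows. Smaller changes, changes in rows near the limit of detection and a difference in scale between replicates were not simulated.

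The miRNAs and lists were chosen with earlier results of these data known. Besides the 8 rows, the text names rows of 3 p53-linked lists that were called, or else the 2 largest log2 fold changes of a list, the 3 nearest profiles, and marker lists. miR-33 was matched as miR-33a and miR-33b, and miR-605 had no row. Rows sharing a seed were not sought, since no mature sequences were at hand. Names of 8 of the 8 rows matched RefSeq genes of UU_Cfam_GSD_1.0, whose coordinates are not printed. Alternatives were pseudocounts of 0.1 and 5 CPM, other row filters, size factors, the deposited values taken as CPM, no trend, voom on recovered reads, a replicate block, thinning and leaving out each library. Copies with identical values were counted once in the mesenchymal and miR-17-92 lists. That count, the ratios of miR-34a to miR-192 and miR-194 and the count of rows that followed the replicate number were added after the data were seen.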

Additional observations from a re-analysis of the deposited data

How the results depend on the processing

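The log2 fold change of miR-34a was negative in all 13 alternatives. In 9 of them, which kept all libraries, it lay between -3.84 and -0.96, with limma adjusted p-values from 0.0284 to 0.233. Only the deposited values read directly as CPM, a scale that compresses differences, passed 0.05 (-0.96). miR-192 and miR-194 stayed positive in those 9 fits, from 0.11 to 0.37 and from 0.22 to 0.64. With 1 library left out, where the lone library is assumed to vary like the others, the ranges were -4.27 to -3.16 for miR-34a, -0.69 to 0.95 for miR-192 and -0.35 to 1.15 for miR-194; the last 2 reversed without mTDE replicate 1.

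The number of all rows called was 6 (0 higher, 6 lower in pTDEs). It was 39 with a pseudocount of 0.1 CPM (28 higher, 11 lower), 14 with size factors (5 higher, 9 lower), 50 with the deposited values taken as CPM (39 higher, 11 lower), 13 without a trend (4 higher, 9 lower), and 16 with voom (5 higher, 11 lower). With 1 library left out it ranged from 0 to 41: 0 without either mTDE library and 41 without either pTDE library (37 higher, 4 lower). All fits with 1 library left out had the same number of libraries, and the cause of this range was not tested. The 3 miRNAs above 0 in both libraries became 5 in each cell line when 1 library was enough, and lay between 3 and 5 with 1 library left out. Thinning left the count at 3. The log2 ratio of miR-192 to miR-194 differed by -0.27 between the cell lines, by -0.06 on the deposited scale, and by -0.35 to -0.19 with 1 library left out.

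The labels give no shared culture, day or batch for a replicate number, and with 2 pairs the numbers were not taken to pair the libraries. Deviations of the replicate 1 libraries correlated at 0.151 over the 326 rows, and 7 rows were called when replicate was entered as a block, against 6, with limma adjusted p-values of 0.154 for miR-34a, 0.958 for miR-192 and 0.813 for miR-194. No library held miR-34b, miR-34c, miR-449a or miR-449b above 3 reads. Differences of these rows under the 3-read limits (0.476 to 1.29 CPM) were not detectable at this depth.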
